A study of Mus musculus with 11 samples.

Results

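The 10 genes described here, Abca1, Abcg1, Apoe, Apoc1, Pltp, Mylip, Srebf1, Nr1h3, Scd1 and Lpcat3, belong to the liver X receptor (LXR) programme and to sterol efflux in mouse adrenal cells with and without the steroidogenic acute regulatory protein Star. They were chosen by name, and every array probe whose RefSeq transcript belongs to one of them was taken. This gave 11 probes of 41174, and 10 genes of the 17425 that could be named. The knockout group held 4 Star-/- mice and the wild-type group 7 Star+/+ mice, all fetuses of E17.5-18.5 (days of embryonic development). In both groups adrenal cells carrying green fluorescence (eGFP) were sorted, and each array measured the linearly amplified RNA of 1 mouse. The promoter that drove eGFP and the part of Star that the knockout allele removes are not given in the sources used here. All 4 knockout mice were labelled male, against 3 of 7 wild-type mice labelled male.

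LXRs are nuclear receptors that bind oxysterols, the oxidised derivatives of cholesterol, and act on DNA as pairs with retinoid X receptors (RXRs). Once bound by oxysterols they are known to raise genes that move cholesterol out of the cell and, in many tissues, genes of fatty acid synthesis. Star carries cholesterol into mitochondria, the first step of steroid hormone synthesis, and adrenal cells without it are known to store excess cholesterol.

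Arrays lay on 3 slides. Slide 1 held knockout arrays 1 and 2 and wild-type arrays 1 and 2, slide 2 held knockout arrays 3 and 4 and wild-type array 3, and slide 3 held wild-type arrays 4, 5, 6 and 7. A level below is the log2 of a probe's background-subtracted intensity minus that array's 75th percentile, so 0 marks the 75th percentile and 1 unit is a doubling. A difference is knockout minus wild-type in a linear model (limma) with slide as a term, and an adjusted p is its Benjamini-Hochberg value over the 20744 genes and unnamed probes tested, with 0.05 as the threshold. Because slide 3 holds 1 genotype, each difference rests on the 4 knockout arrays and wild-type arrays 1, 2 and 3, while slide 3 adds to the estimate of the spread. In a fit without wild-type array 3, slide 2 also holds 1 genotype. Each difference then rests on slide 1 alone, knockout arrays 1 and 2 against wild-type arrays 1 and 2. The 75th percentile signal was between 114.6 and 705.5 intensity units, and 19072 to 26418 probes were well above background. Wild-type array 3, the one wild-type array of slide 2, stood apart: it had the lowest 75th percentile and its median correlation with the rest was the lowest (0.877, against 0.898 to 0.936 for the other 10). It was labelled female, whereas the knockout arrays and the wild-type arrays of slide 1 were labelled male. Within slide 2, sex and genotype therefore cannot be told apart. Wild-type array 4 was labelled female but carried summed Y-linked signal at the level of the males (its sum of sex-linked markers was 14.2, against 0.0491 to 0.437 on wild-type arrays 3, 5 and 6), so its sex label does not match its signal.

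The targeted gene Star had levels of 1.58, 2.59, 2.05 and 3.27 on knockout arrays 1 to 4, against a lowest, median and highest level of 3.21, 5.87 and 7.86 on the 7 wild-type arrays. Its difference was -4.70 ± 0.93 (SE), adjusted p = 0.0558, and the groups overlapped only between knockout array 4 and wild-type array 6. A second Star probe separated the groups without overlap, with a difference of -5.38 (adjusted p = 0.0367 when every probe was tested separately).

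The cholesterol exporter Abcg1 and the phospholipid transfer protein Pltp rose in Star knockout cells, by 11-fold and 19.7-fold in the fit. The size for Pltp rests on dim wild-type signal, which was not well above background on 2 of 7 arrays, and the difference was 2.34 instead of 4.30 on the log2 scale under another background correction (normexp). They were the only 2 of 10 members past the threshold in this fit, while 0.603% of all genes tested passed in the higher direction. No member passed in the lower direction, in which 0.231% of all genes passed, and at an unadjusted p under 0.05 the member counts were 7 higher and 0 lower, against 8.39% and 10.1% of all genes. The levels of 6 members, Abcg1, Apoe, Apoc1, Pltp, Mylip and Nr1h3, did not overlap between the 4 knockout and the 7 wild-type arrays, a separation that 4.12% of all genes showed. None had all knockout levels below all wild-type levels, which 3.24% of all genes did. The fitted difference was above 0 for 8 of 10 members and for 43.0% of all genes. The median difference over the 10 members was 2.22 on the log2 scale, against -0.157 over all genes tested. Without wild-type array 3 the median of the members was 1.30 and 0 of 10 passed (limma; 4 at an unadjusted p under 0.05). That fit also takes knockout arrays 3 and 4 out of each difference. It therefore cannot separate the part of array 3 from the loss of slide 2. The summed signal of 14 macrophage markers was also higher on every knockout array, at 282 to 476 times the 75th percentile, against 13.6 to 88.1 times on the wild-type arrays. Its part in these differences was not tested. In bulk RNA of sorted cells a change in the number of cells of a type and a change in RNA per cell cannot be told apart.

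**Figure D1:**
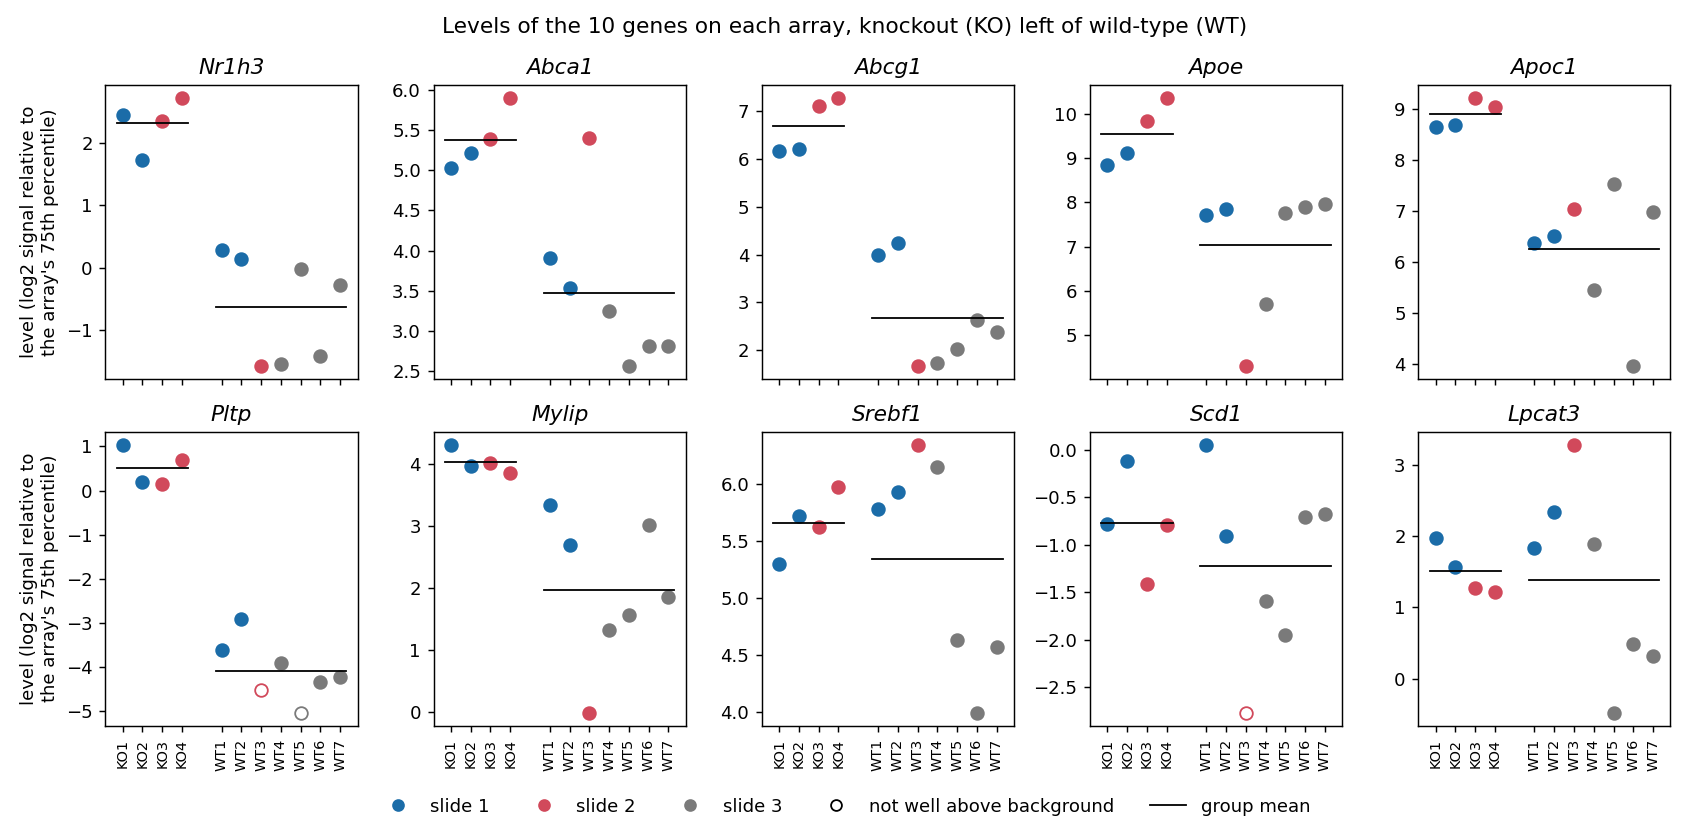
Level of each of the 10 genes on each of the 11 arrays (y axis, log2 relative to the array's 75th percentile), knockout arrays left of wild-type arrays, coloured by slide. The knockout points of Pltp lie between 0.15 and 1.03, all above the wild-type points, while those of Srebf1 lie within the wild-type range.

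All 10 members passed the filter on dim probes, which asked for signal well above background on at least 4 of 11 arrays. A probe bright only in the 4 knockout arrays could pass it. In fact 8 of the 10 genes were well above background on all 11 arrays; the exceptions were Pltp (4 of 4 knockout and 5 of 7 wild-type arrays) and Scd1 (4 of 4 knockout and 6 of 7 wild-type arrays). The standard deviation was smaller among knockout than among wild-type arrays for all 10 genes, 0.193 to 0.685 against 0.683 to 1.44, although the wild-type arrays span 3 slides and the knockout arrays 2.

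Nr1h3 (probe A_52_P546421) encodes LXRα itself, the LXR form of liver, fat and macrophages, and is one of its own targets in several cell types. Its levels were 2.45, 1.72, 2.36 and 2.71 on knockout arrays 1 to 4. On the wild-type arrays the lowest, median and highest levels were -1.58, -0.28 and 0.28. Every knockout array was above every wild-type array, and the lowest wild-type level belonged to array 3. The means were 2.31 ± 0.42 in knockout cells (SD, n = 4) and -0.63 ± 0.84 in wild-type cells (SD, n = 7). The fitted difference of 2.77 ± 0.57 (SE) did not pass the threshold (adjusted p = 0.0641). It was 1.88 within slide 1 and 4.11 within slide 2.

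Abca1 (probe A_52_P665675) exports cholesterol and phospholipid to lipid-poor apolipoproteins and is a classical LXR target. Its levels on knockout arrays 1 to 4 were 5.03, 5.21, 5.39 and 5.89. The wild-type arrays had a lowest level of 2.57, a median of 3.25 and a highest level of 5.40. The highest came from array 3, the one wild-type array inside the knockout range; the other 6 were at 3.91 or below. Within slide 1 the knockout arrays were higher by 1.39, and within slide 2 the difference was 0.24 with overlap. The fitted difference was 0.93 ± 0.36 (SE), with an unadjusted p of 0.0275 and an adjusted p of 0.222.

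The upstream sequence of Abca1 is printed with that of Srebf1, because their best matches to an LXR/RXR motif share the same 12 letters, and with that of Pltp, the gene with the smallest adjusted p of the 10. The motif, called DR4, was a pair of AGGTCA hexamers in the same orientation with 4 bases between them, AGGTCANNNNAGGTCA, searched on both strands of RefSeq promoter windows from 250 bases before to 50 after a start site (build GRCm38.p6). Of the 10 genes, 7 had a window, and there were 12 windows in all. Below are the 250 bases before the start site, 5′ to 3′ on the gene's strand, with the letters under the hexamers of the best match in capitals.
Abca1 (chr4:53159896-53160145, minus strand): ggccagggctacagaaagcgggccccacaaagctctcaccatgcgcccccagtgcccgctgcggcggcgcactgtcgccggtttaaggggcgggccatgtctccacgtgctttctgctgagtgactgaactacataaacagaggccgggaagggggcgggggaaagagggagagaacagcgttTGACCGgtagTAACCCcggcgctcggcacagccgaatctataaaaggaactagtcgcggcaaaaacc
Srebf1 (chr11:60210472-60210721, minus strand): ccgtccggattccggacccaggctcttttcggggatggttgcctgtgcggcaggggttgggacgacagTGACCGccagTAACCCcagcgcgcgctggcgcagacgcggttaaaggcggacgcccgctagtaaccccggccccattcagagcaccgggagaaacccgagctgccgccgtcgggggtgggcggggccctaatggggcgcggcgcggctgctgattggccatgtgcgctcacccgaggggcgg
Pltp (chr2:164857709-164857958, minus strand): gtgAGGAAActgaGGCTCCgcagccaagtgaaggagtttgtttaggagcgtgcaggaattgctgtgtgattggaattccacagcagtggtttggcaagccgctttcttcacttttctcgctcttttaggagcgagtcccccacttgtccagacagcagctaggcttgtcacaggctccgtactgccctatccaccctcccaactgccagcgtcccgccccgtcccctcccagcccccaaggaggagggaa
Abca1 and this Srebf1 window, 1 of 3 for that gene, matched DR4 on the opposite strand with 3 mismatches of 12, at -67 to -52 and -182 to -167 from the start site. A match this good or better was in 21.9% of 32851 windows. The best match of Pltp had 5 mismatches, which 99.8% of windows reached. The exact hexamer AGGTCA was in 0 of the 12 member windows and in 16.3% of all windows, where matches to it can be part of a DR4 match. These matches describe letters in these windows and do not say where a receptor bound.

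Abcg1 (probe A_51_P222467) passes cholesterol from the cell to high-density lipoprotein particles. It had levels of 6.17, 6.21, 7.12 and 7.28 on knockout arrays 1 to 4. Its lowest, median and highest wild-type levels were 1.67, 2.38 and 4.24. The groups did not overlap: the 2 highest wild-type levels were those of slide 1, and the lowest was that of array 3. Knockout cells averaged 6.69 ± 0.59 (SD, n = 4) and wild-type cells 2.66 ± 1.05 (SD, n = 7). The fitted difference was 3.46 ± 0.63 (SE), adjusted p = 0.0436. It came to 2.08 on slide 1 and 5.53 on slide 2, and this gap between slides of 3.45 did not pass its own test (adjusted p = 0.0747). Abcg1 was past the threshold in 12 of 30 alternatives, with adjusted p from 0.00155 to 0.197. Of the 11 fits that each left out 1 array, the one without wild-type array 4 kept the call (adjusted p = 0.0344) and the other 10 did not; the difference without wild-type array 3 was 2.08 (adjusted p = 0.197), and with sex as a further term it was 2.91 (adjusted p = 0.139).

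Apoe (probe A_51_P171999), the apolipoprotein that carries effluxed cholesterol out of macrophages and steroid-producing cells, had levels of 8.85, 9.11, 9.84 and 10.35 on knockout arrays 1 to 4, against a lowest, median and highest wild-type level of 4.31, 7.76 and 7.96. No wild-type array reached the knockout range. Array 3, at 4.31, was far below the 2 wild-type arrays of slide 1, at 7.71 and 7.85. Knockout arrays were thus higher by 1.20 on slide 1 and by 5.79 on slide 2. The fitted difference of 3.04 ± 0.90 (SE) did not pass (adjusted p = 0.137).

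Apoc1 (probe A_51_P164504), a small apolipoprotein encoded next to Apoe, had levels of 8.66, 8.70, 9.22 and 9.04 on knockout arrays 1 to 4. Its wild-type levels had a minimum of 3.96, a median of 6.51 and a maximum of 7.54. The groups did not overlap, and here the minimum belonged to array 6 and not to array 3. The differences within slide 1 and slide 2 were close, at 2.24 and 2.08. In the fit it was 2.18 ± 0.74 (SE), adjusted p = 0.179.

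Pltp (probe A_51_P226655) transfers phospholipid between lipoproteins and into high-density particles. Its levels were 1.03, 0.19, 0.15 and 0.70 on knockout arrays 1 to 4. The wild-type arrays had a lowest, median and highest level of -5.03, -4.23 and -2.92, and arrays 3 and 5 were not well above background. No wild-type array came near the knockout range. The means were 0.52 ± 0.43 in knockout cells (SD, n = 4) and -4.08 ± 0.68 in wild-type cells (SD, n = 7). The fitted difference was 4.30 ± 0.43 (SE), adjusted p = 0.00347. It was 3.87 within slide 1. Within slide 2 it was 4.95, against wild-type array 3 alone, where the probe was not well above background, so this value is not a measured size. Pltp was past the threshold in 26 of 29 alternatives, with adjusted p from 0.000169 to 0.0957. Those in which it was not were the fit without wild-type array 3 (3.87, adjusted p = 0.0551) and the fits within slide 1 (adjusted p = 0.0957) and slide 2 (adjusted p = 0.0523); a different background correction (normexp) kept the call at the smaller difference given above.

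Mylip (probe A_51_P324303), also called Idol, is an E3 ubiquitin ligase that limits the uptake of lipoprotein cholesterol. Its brighter probe had levels of 4.30, 3.97, 4.02 and 3.85 on knockout arrays 1 to 4, the narrowest spread of the 10 genes. The wild-type levels ranged from -0.016 on array 3 through a median of 1.84 to 3.33. The groups did not overlap, and wild-type array 1, at 3.33, came nearest to the knockout range. Knockout arrays were higher by 1.13 on slide 1 and by 3.95 on slide 2, and the fitted value of 2.26 ± 0.62 (SE) did not pass (adjusted p = 0.120). A second Mylip probe was well above background on 0 of 4 knockout and 1 of 7 wild-type arrays and was not tested.

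Of the remaining 3 genes, which act in fatty acid and phospholipid synthesis, none passed. Srebf1 (probe A_51_P401921) encodes SREBP1, the factor that drives fatty acid synthesis genes and that LXR is known to raise in liver. Its levels were 5.30, 5.72, 5.62 and 5.97 on knockout arrays 1 to 4, against a lowest, median and highest wild-type level of 3.99, 5.78 and 6.34. The 4 knockout arrays lay inside the wild-type range. Within slides 1 and 2 each knockout array was lower than each wild-type array, by 0.34 and 0.54 on average, a position that 19.8% of all genes shared. The fitted difference was -0.42 ± 0.49 (SE), adjusted p = 0.666, and it turned to 0.31 without the slide term. Of the 4 wild-type arrays of slide 3, which that fit compares with the knockout arrays directly, 3 lay below every knockout array.

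Scd1 (probe A_52_P682382), a desaturase that makes monounsaturated fatty acids, had levels of -0.78, -0.11, -1.42 and -0.79 on knockout arrays 1 to 4. Its wild-type levels ranged from -2.77 on array 3, where it was not well above background, through a median of -0.91 to 0.050. The groups overlapped throughout. Knockout minus wild-type came to -0.016 on slide 1 and 1.66 on slide 2, with a fitted value of 0.65 ± 0.52 (SE) and an adjusted p of 0.519.

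Lpcat3 (probe A_51_P145415) puts polyunsaturated fatty acids into membrane phospholipids. Its levels were 1.97, 1.56, 1.27 and 1.22 on knockout arrays 1 to 4, with a wild-type minimum of -0.48, median of 1.83 and maximum of 3.28. Array 3 gave the maximum, and the groups overlapped. In the fit it differed by -1.003 ± 0.58 (SE), adjusted p = 0.378, with -0.31 within slide 1 and -2.04 within slide 2. Without the slide term the value was 0.13.

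**Figure D2:**
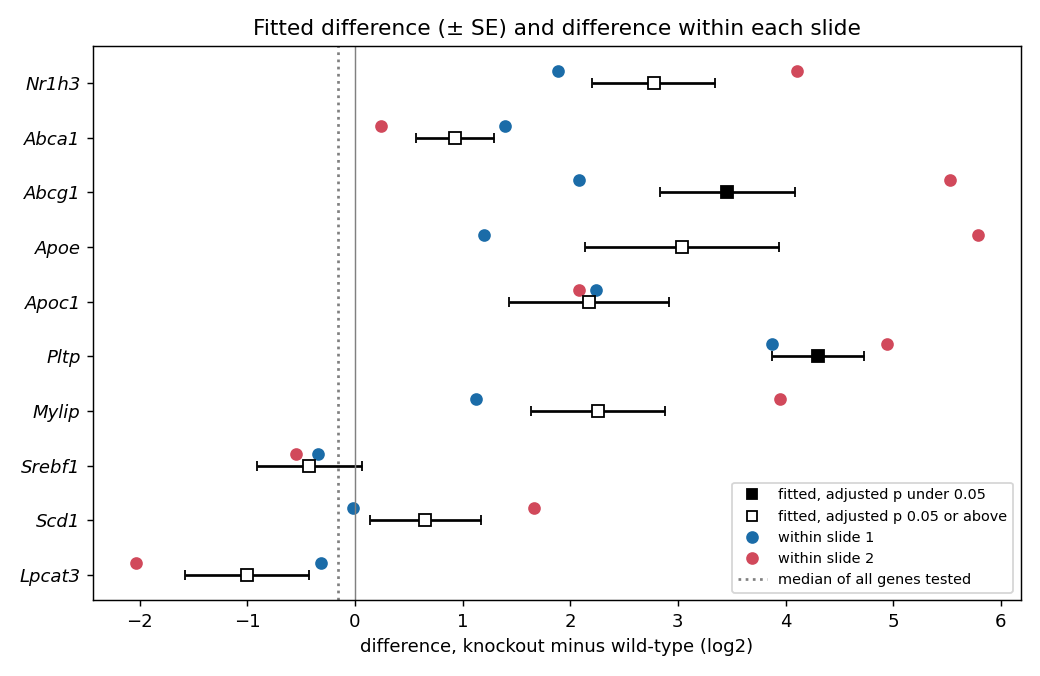
Fitted difference of each gene, knockout minus wild-type (log2, bars are the standard error), with the differences within slide 1 and within slide 2 beside it. Slide 2 gave the larger value for Abcg1 (5.53 against 2.08 on slide 1) and Apoe (5.79 against 1.20), and about the same value for Apoc1.

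For several members the difference was larger on slide 2 than on slide 1, but the test of that gap passed for none. The wild-type arm of slide 2 is array 3 alone, which the test assumes to vary like the other groups. That array was labelled female and the knockout arrays male, so sex and genotype cannot be told apart on slide 2. The slide 2 difference minus the slide 1 difference was 4.59 for Apoe (adjusted p = 0.126), 2.82 for Mylip (adjusted p = 0.190) and 2.23 for Nr1h3 (adjusted p = 0.291). Of all genes tested, 0.053% passed, and 0 of the 10 members (limma). An unadjusted p under 0.05 was reached by 4 of the 10 members, Abcg1, Apoe, Mylip and Nr1h3, and by 3343 of all 20740 genes tested. Wild-type array 3 was the lowest of the 11 arrays for 5 members, Abcg1, Apoe, Mylip, Nr1h3 and Scd1, and the highest for 2, Srebf1 and Lpcat3. It was the lowest for 15.4% and the highest for 27.2% of all genes tested.

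Genes with levels most like those of the exporters were found by Pearson correlation of slide-centred levels over the 11 arrays, among 13777 tested genes with a symbol. For Abcg1 these were Slc11a1, a metal transporter of phagocytes (r = 0.994), Cyba, a subunit of the phagocyte NADPH oxidase (r = 0.993), and Ctsd, a lysosomal protease (r = 0.991). All 3 passed the threshold in the higher direction, with differences of 4.88 ± 0.90, 3.47 ± 0.58 and 3.37 ± 0.59 (SE) and adjusted p of 0.0468, 0.0303 and 0.0374. For Abca1 they were Rhbdf2 (r = 0.983), Olfr259 (r = 0.964) and Tpp1 (r = 0.938), none past the threshold. The arrays share their genotype and wild-type array 3, so these correlations describe likeness only. The 3 genes like Abcg1 were picked because they follow a gene that passed, so their calls lend no further support.

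Among the receptors and partners of LXR, 0 of 10 tested genes passed in either direction (limma; 2 higher and 0 lower at an unadjusted p under 0.05), and their median difference was 0.40. For this list and the lists below, the shares of all genes past the threshold were 0.603% higher and 0.231% lower. At an unadjusted p under 0.05 the shares of all genes were 8.39% and 10.1%. Nr1h2, which encodes the widely expressed LXRβ, differed by 0.82 ± 0.55 (adjusted p = 0.446). The RXR genes Rxrb, Rxrg and Rxra had fitted differences of 1.48 ± 0.42 (adjusted p = 0.122), 2.26 ± 0.84 (adjusted p = 0.209) and 1.79 ± 0.82 (adjusted p = 0.278), all with overlap between the groups.

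Of 30 other known LXR targets, 29 were on the array and 27 could be tested; Abcg8 and Ugt1a1 were not well above background on any array. Of the 27, 1 rose and 0 fell, against 0.603% and 0.231% of all genes. At an unadjusted p under 0.05, 6 were higher and 4 lower, against 8.39% and 10.1% of all genes. Without overlap, 5 were higher and 1 lower, against 4.12% and 3.24% of all genes. With 13 fitted above and 14 below 0 the median difference was -0.11, near that of all genes. The gene that rose was Cd5l, a secreted protein of macrophages that inhibits cell death, with levels of 7.02, 6.77, 7.98 and 6.54 on knockout arrays 1 to 4 and a lowest, median and highest wild-type level of -1.25, 0.076 and 2.96. Its difference was 6.12 ± 0.90 (SE), adjusted p = 0.0230, and 5.38 without wild-type array 3 (adjusted p = 0.279). Lpl, the lipoprotein lipase, differed by 2.86 ± 0.64 (adjusted p = 0.0771) and Arl4c, a small GTPase, by 1.93 ± 0.40 (adjusted p = 0.0677), both without overlap. Elovl5, which elongates polyunsaturated fatty acids, differed by -1.58 ± 0.38 (adjusted p = 0.0947), also without overlap.

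Enzymes that make or clear oxysterols gave 0 calls among 7 tested genes (limma; 1 higher and 0 lower at an unadjusted p under 0.05). Cyp27a1, the sterol 27-hydroxylase, was well above background on 4 of 4 knockout and 3 of 7 wild-type arrays and differed by 2.17 ± 0.75 (adjusted p = 0.185). Ch25h, the cholesterol 25-hydroxylase, differed by 0.85 ± 0.72 (adjusted p = 0.550), Cyp7b1 by 0.42 ± 0.92 (adjusted p = 0.838) and Cyp46a1 by -0.54 ± 0.30 (adjusted p = 0.362).

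In the list of other efflux and lysosomal sterol export genes, 1 of 11 rose and 0 fell (limma, with 3 higher and 0 lower at an unadjusted p under 0.05). It was Npc2, the soluble protein that hands cholesterol over inside the lysosome, with levels of 5.05, 4.55, 5.03 and 4.38 on knockout arrays 1 to 4 and a lowest, median and highest wild-type level of 2.13, 3.14 and 3.49. The difference was 1.98 ± 0.36 (SE), adjusted p = 0.0439, and 1.57 without wild-type array 3 (adjusted p = 0.372). Stard3, a sterol transfer protein of late endosomes, differed by 1.21 ± 0.29 (adjusted p = 0.0931), Lipa, the lysosomal acid lipase, by 1.52 ± 0.51 (adjusted p = 0.174), and Npc1, the membrane partner of Npc2, by 0.89 ± 0.51 (adjusted p = 0.375).

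Targets of SREBP2, the factor that is active when cell cholesterol is low, gave 0 calls among 19 tested genes (limma; 2 higher and 6 lower at an unadjusted p under 0.05). Their median difference was -0.56, with 12 of 19 fitted below 0. Sqle, the squalene epoxidase, differed by -1.09 ± 0.35 (adjusted p = 0.160) and Mvd, a mevalonate pathway enzyme, by 1.08 ± 0.37 (adjusted p = 0.177).

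**Figure D3:**
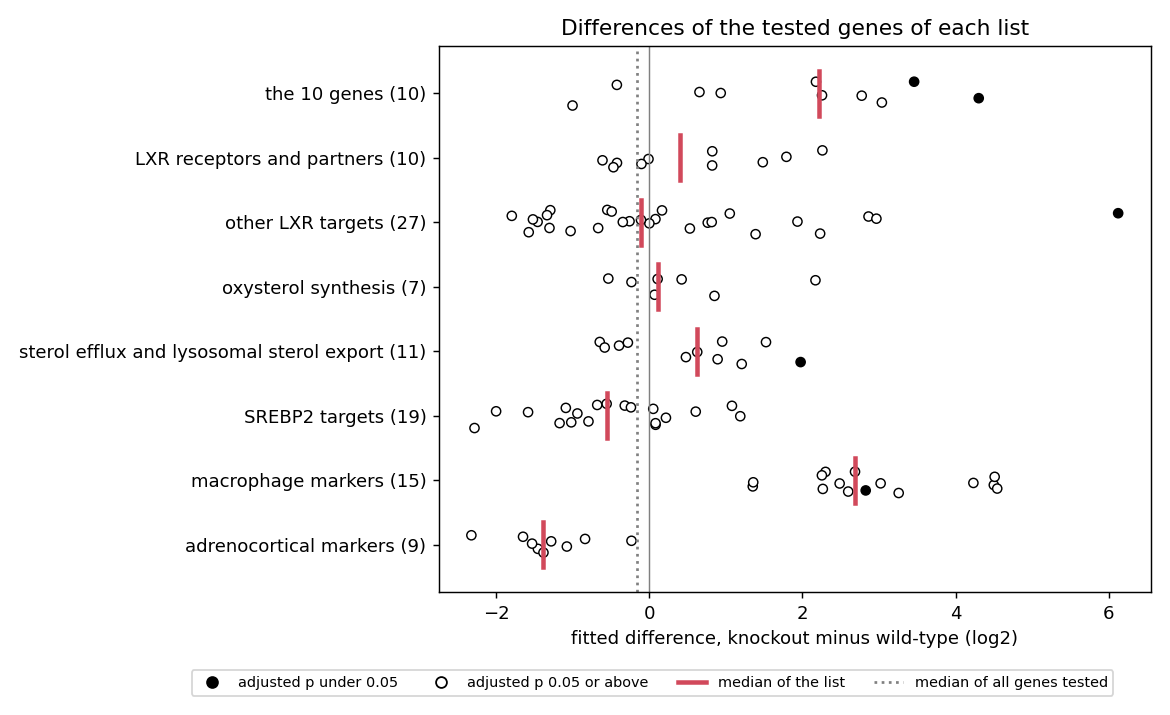
Fitted differences (x axis, log2, knockout minus wild-type) of the tested genes of each list, with the list's median as a red bar and the median of all genes, -0.157, as a dotted line. Filled points passed the threshold: 2 of 10 members, Cd5l, Npc2 and the macrophage gene Spi1, whose wild-type signal was not well above background. Spi1 met the filter on dim probes through the knockout arrays alone.

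Abca1, Abcg1, Apoe and Nr1h3 are expressed in macrophages as well as in steroid-producing cells, and the macrophage markers are given here in full. All 15 macrophage markers on the array were fitted above 0, against 43.0% of all genes tested, with a median difference of 2.69. Higher levels without overlap between the groups were seen for 14, against 4.12% of all genes. Of the 15, 1 passed, Spi1 (limma, adjusted p = 0.0427). Lyz2 had no value on knockout array 4, where its spot was an outlier, and was left out of the sums. The summed signal of the other 14, in multiples of the 75th percentile, was 385, 282, 476 and 380 on knockout arrays 1 to 4, against a lowest, median and highest of 13.6, 38.1 and 88.1 on the wild-type arrays, without overlap. Spi1 was well above background on 4 of 4 knockout and 0 of 7 wild-type arrays. It met the filter on dim probes through the knockout arrays alone, so its call lends no support and its size is known only as a bound. Without wild-type array 3 its adjusted p was 0.214 (limma). Itgam was well above background on 1 of 7 wild-type arrays and Cx3cr1 on 3 of 7. All 14 had signal well above background on each knockout array, and 9 to 13 of the 14 on each wild-type array.

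Adrenocortical markers were well above background on every array, 7 or 8 of the 8 with a value on all arrays (Fdx1 had none on knockout array 4). Their summed signal was 234 to 769 in knockout and 186 to 2475 in wild-type cells. All 9 markers on the array were fitted below 0, with a median difference of -1.38, and 0 of 9 passed (limma; 0 higher and 1 lower at an unadjusted p under 0.05). Chromaffin markers, of the adrenal medulla, summed to 5.44 to 148 in knockout and 101 to 1978 in wild-type cells. Erythroid markers summed to 599 to 1635 and 872 to 4304, and capsule and stroma markers to 703 to 1556 and 305 to 2138, in knockout and wild-type cells. Hepatocyte markers summed to 7.43 to 454 in knockout and 1.04 to 1152 in wild-type cells. Their lowest wild-type sum was on array 6 and the highest on array 5. Apoc1 was also lowest on wild-type array 6 and highest on array 5, while Apoe was at 7.89 on array 6. The part of these markers in the differences was not tested either.

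**Figure D4:**
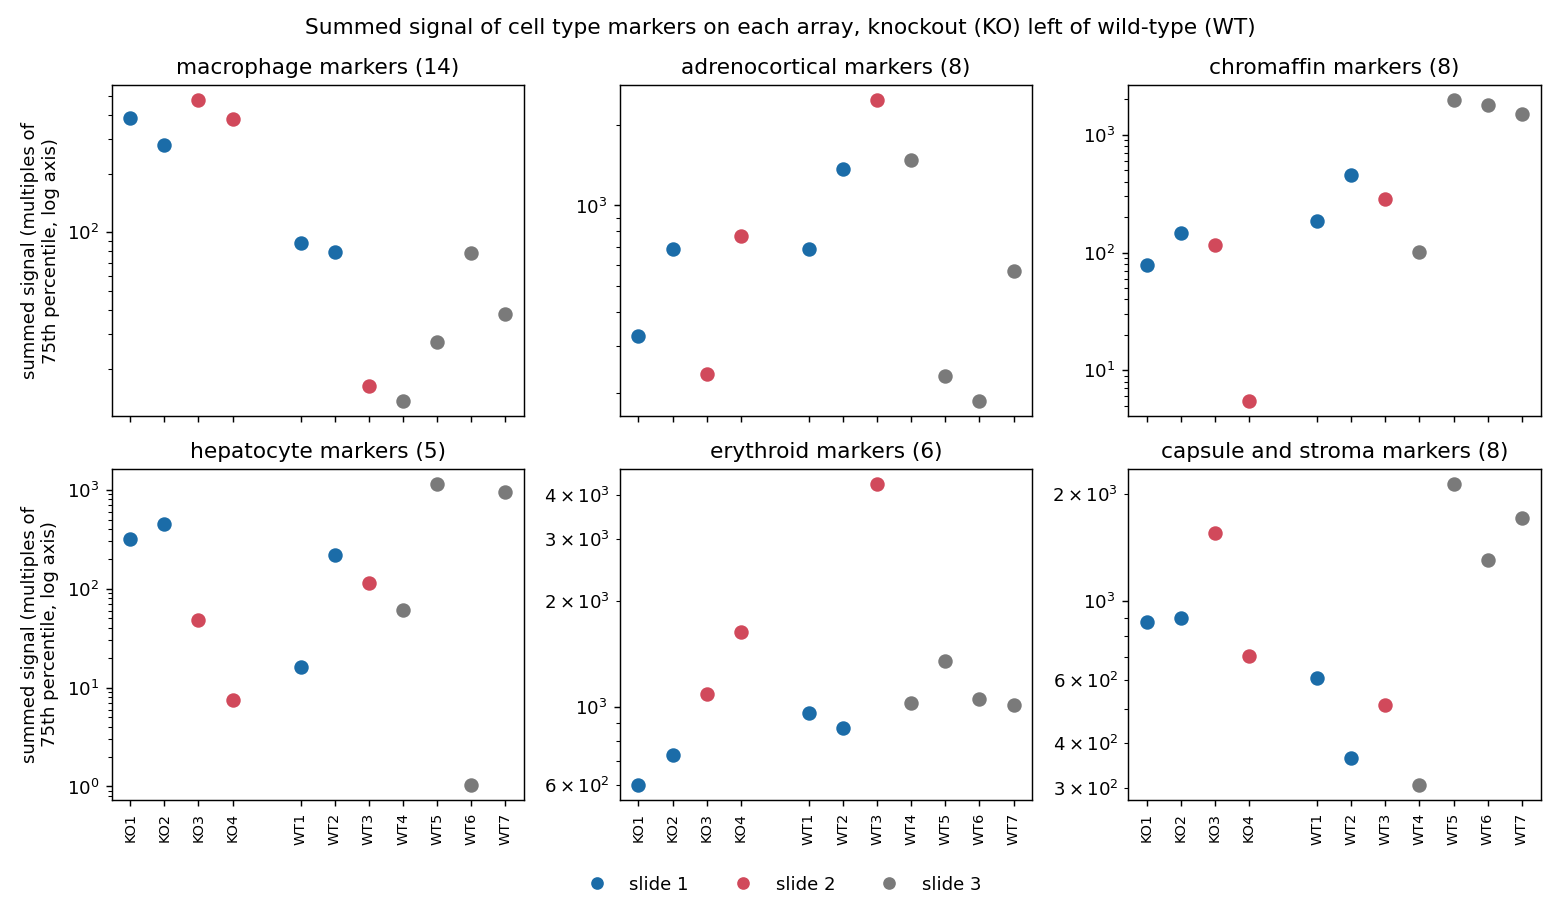
Summed signal of 6 lists of cell type markers on each array (y axis, multiples of the array's 75th percentile, log axis), knockout arrays left of wild-type arrays, coloured by slide. The macrophage sums of the 4 knockout arrays, 282 to 476, lie above those of the 7 wild-type arrays, 13.6 to 88.1, and the other 5 lists overlap between the groups.

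**Figure D5:**
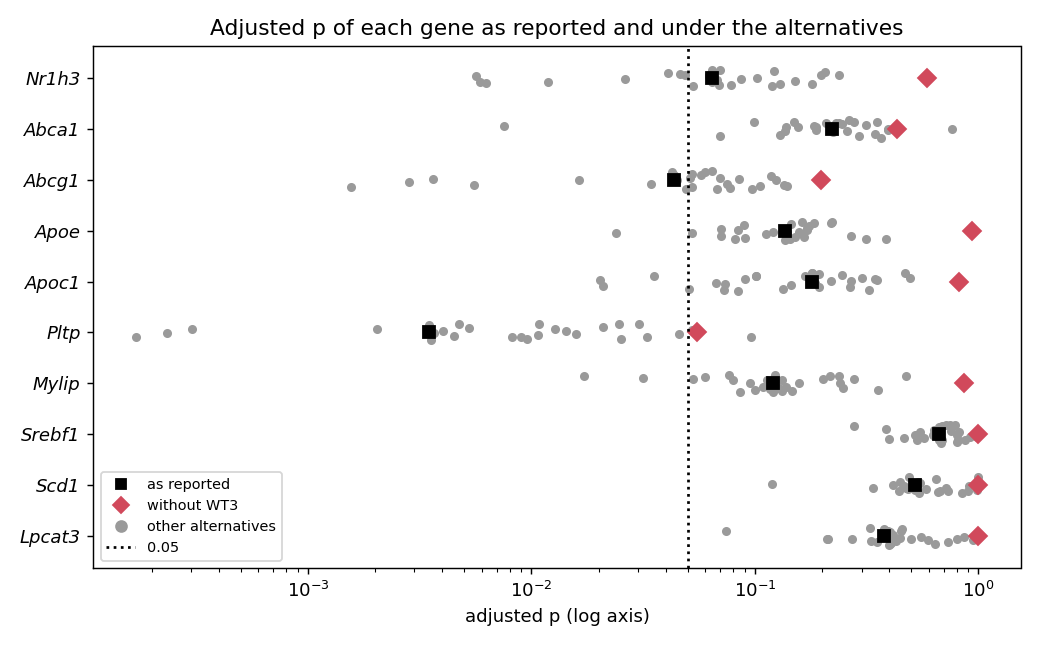
Adjusted p of each gene (x axis, log axis) as reported, without wild-type array 3 (WT3) and under the other alternatives, with the threshold as a dotted line. The reported points of Abcg1 and Pltp lie below 0.05, at 0.0436 and 0.00347, and without wild-type array 3 every gene lies above it.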

How the data were processed

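Single-colour Agilent mouse arrays measured RNA of eGFP-sorted adrenal cells of 11 fetal mice. The deposited scanner files hold spot intensity; per the file headers, Agilent Feature Extraction 10.1.1.1 (slides 1 and 2) or 10.5.1.1 (slide 3) subtracted background in the processed signal. The submitters' processing notes name 10.5.1.1. The authors' deposited value table holds log2 values; set against the scanner files it matched their log2 signal after 75th percentile scaling and centring of each probe on its median, within 0.01 for 99.83% to 99.84% of values, with column medians of -0.1657 to 0.9014. It served as an alternative.

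Outlier spots (77 to 164 per array) and control spots were left out, spots of a probe averaged, and log2 signal scaled to the array's 75th percentile; 0 probes were saturated. RefSeq accessions were named through a GRCm38.p6 gene table, which gave 25374 probes a symbol and left 15800 without. A gene is its probe with the highest mean, well above background on at least 4 of 11 arrays. Genotype and slide were fitted with limma 3.58.1 (7 residual degrees of freedom). On simulated data with 200 of 20744 genes changed, this fit called 0% of 2-fold, 17.9% of 4-fold and 56.1% of 8-fold changes, with 2 false calls. Each array is a separate mouse per the labels; the number of arrays limits the precision.

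The text names all 10 members, Star, up to 4 genes with the smallest p from each pathway list (2 of the SREBP2 targets are not reported here), and the 3 genes most like Abca1 and Abcg1; Spi1, Itgam, Cx3cr1, Lyz2 and Fdx1 were named after their values were seen. The 10 members, the other lists and the tests were chosen with earlier results of these data known. Same-numbered knockout and wild-type arrays correlated at 0.182, 0.218, -0.00774 and 0.185 in their deviations, so the numbers were not taken as pairs. Alternatives covered scaling, background correction, filters, probe choice, slide and sex terms, array weights and leaving out arrays. The fit without wild-type arrays 3 and 4 and the test between slides were added after seeing the data.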

Additional observations from a re-analysis of the deposited data

Results flagged for a closer look

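In 40 groups of values tested for a lone extreme, 1 stood out: the summed signal of erythroid markers was 4304 times the 75th percentile on wild-type array 3, against 872 to 1351 on the other 6 wild-type arrays. About 1 in 20 groups is marked by chance. The same array set the low end of the wild-type range for 5 of the 10 genes and for 17.4% of all genes tested. It set the high end for 3 of the 10 genes and for 31.4% of all genes tested.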

How the results depend on the processing

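As reported, the fit called 173 genes and 2 members, with a member median of 2.22. Numbers of genes, members and the median of the members were, by setting: 594 and 4 with no slide term; 28, 1 and 1.87 with a sex term; 78, 1 and 1.92 with a sex term and without wild-type array 4; 469 genes with a random slide block; 533 genes on slides 1 and 2 only; 0, 0 and 1.30 within slide 1 (limma; 3860 genes and 7 members at an unadjusted p under 0.05); 0, 0 and 3.01 within slide 2 (7488 genes and 8 members at an unadjusted p under 0.05); 624 and 5 with normexp; a median of 2.46 with quantile normalization; 1 member with no filter; 403 genes with signal above background on all arrays; 2319, 6 and 1.39 with array weights; 33, 1 and 1.30 without wild-type arrays 3 and 4. The replicate block in place of slide gave 177 genes and 1 member, Pltp (Abcg1 adjusted p = 0.0700). On slides 1 and 2 only, the members called by limma were Apoc1, Nr1h3 and Pltp (adjusted p = 0.0208, 0.0461 and 0.0108). Abcg1 was not called there (adjusted p = 0.0522). Leaving out 1 array gave 10 to 565 genes (10 without wild-type array 3, 565 without array 4), 0 to 3 members and medians of 1.30 to 2.41.

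Higher calls were 72.3% of 173 genes, and 55.8% of those above background on all arrays, 53.4% with array weights, 89.3% with sex and 81.8% without wild-type arrays 3 and 4. Normexp moved the median of all genes to -0.287, and no slide term moved it to 0.055. Srebf1 (0.31) and Lpcat3 (0.13) reversed with no slide term. Scd1 reversed within slide 1, without wild-type array 3 and without arrays 3 and 4 (-0.016 each; -0.016 to 1.06 over the fits leaving out 1 array) and with array weights (-0.0048). Causes were not tested. Abca1, Abcg1, Apoe, Apoc1, Mylip, Nr1h3 and Pltp kept their direction in every alternative run, 30 each (29 for Pltp). These are not separate checks of direction. Leaving out slide 3 arrays cannot change a difference in the fit with slide. Other filters and the mean of a gene's probes also returned the reported differences of these genes. The fit without wild-type array 3 repeats the differences within slide 1. Dim signal limits Pltp, Scd1 and the second Mylip probe.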

Other observations

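The wild-type arrays differed by slide for the exporters. Abca1 had levels of 3.91, 3.54 and 5.40 on wild-type arrays 1, 2 and 3, and of 2.57 to 3.25 on the 4 arrays of slide 3. Abcg1 had 3.98 and 4.24 on the 2 wild-type arrays of slide 1, and 1.67 to 2.63 on the other 5. Chromaffin markers summed to 1493 to 1978 times the 75th percentile on wild-type arrays 5, 6 and 7, and to 101 to 457 on wild-type arrays 1 to 4.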
